A study of Mus musculus with 34 samples.

Results

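Livers of PiZ mice given the vehicle PBS were compared with livers of wild-type mice given PBS. The PiZ strain carries, as a transgene, the human alpha-1 antitrypsin gene in its Z form. The comparison takes 10 of the 34 libraries of the series, all from the table of 22 libraries that holds both groups: the 5 labelled PiZ, vehicle, and 5 of the 6 labelled wild-type, vehicle (replicates 1, 3, 4, 5 and 6). Both groups are male mice aged 3 months on standard chow, PBS was given by intraperitoneal injection, and the labels place both in one batch. The series asks how the liver responds to a protein that polymerizes in the endoplasmic reticulum (ER). In this contrast the PiZ group carries the polymerizing protein without any further treatment. The labels give no strain and do not say whether the wild-type mice were littermates of the PiZ mice, how many copies of the transgene they carry or what drives it, and the table has no gene named SERPINA1, so the transgene itself was not measured here. Whether strain background differed between the groups was not tested. This limit touches the H2, Hc, Serpina3 and major urinary protein genes described below, since the H2, Hc and urinary protein loci are known to differ between mouse strains. Titles number the libraries within a group and do not state that each is a separate mouse, so the p-values below measure the spread between these libraries.

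Hepatocytes fold and secrete most plasma proteins, alpha-1 antitrypsin among the most abundant of them. The Z variant folds poorly, forms polymers and is retained in the ER, where chaperones bind it and ER-associated degradation and autophagy remove part of it. A loaded ER can signal through the unfolded protein response, which has the sensors PERK (Eif2ak3), IRE1 (Ern1) and ATF6, and ER retention of polymers is also known to activate NF-kB, the transcription factor family of inflammation and survival genes. Human carriers of the variant in both gene copies are prone to hepatocyte injury, fibrosis and liver cancer.

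Values are log2 CPM as deposited (counts per M reads of that library, log2 scale, with a small prior count), and where 5 values are listed they stand in the order of wild-type 1, 3, 4, 5 and 6 or of PiZ 1 to 5. The wild-type libraries held 41.6 to 54.0 M reads on genes and the PiZ libraries 35.5 to 50.4 M. Wild-type replicate 2 was set aside: it held 10.2 M reads, 72.2% of them on genes that code for protein (the 10 libraries used had 97.3% to 97.8%), 32360 genes above 1 CPM and Alb at 12.22 log2 CPM. The 10 libraries separated by genotype along the first principal component, which held 70.3% of the variance. PiZ 4 stood apart from the other PiZ libraries on the second component (48.2, against -17.4 to 3.96; 11.4% of the variance), and 19.2% of its reads were mitochondrially encoded, against 4.79% to 9.40% in the other PiZ libraries and 8.73% to 19.6% in wild type. Of 38 gene lists with at least 5 members tested in which more members rose than fell, PiZ 4 was the PiZ library nearest to wild type in 32; of the 27 lists with more falls it was nearest in 2, PiZ 5 in 12 and PiZ 1 in 9. The liver identity of both groups was plain from defining hepatocyte genes: albumin (Alb) was between 15.79 and 16.36 log2 CPM in wild type and between 15.47 and 16.09 in PiZ, and the hepatocyte regulator Hnf4a was between 8.80 and 9.52 log2 CPM in wild type and between 8.84 and 9.08 in PiZ. Neither was called (-0.13 ± 0.16 and -0.07 ± 0.13 on the log2 scale, SE, limma adjusted p = 0.527 and 0.655). Of the 18 hepatocyte identity markers that include both genes, 8 fell (44.4%, against 6.48% of all genes tested) and 0 rose.

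Of 12729 genes tested, those above 1 CPM in at least 5 of the 10 libraries, 2416 rose in PiZ liver (19%) and 825 fell (6.48%). Here a gene rose or fell only if it passed limma at an adjusted p of 0.05 in the same direction both on the deposited values and after all libraries were shifted to the same median. Both were asked because the median gene was 0.40 higher in PiZ on the deposited scale and -0.08 after the shift, a shift of 0.48 between groups. On the deposited values alone 5955 genes (46.8%) passed as higher and 825 as lower, and after the shift alone 2416 and 2930 (23%) passed, so the balance of rises and falls rests on the scale while the calls used here hold on both. Fold changes are PiZ minus wild type on the deposited log2 scale with their standard error (SE, n = 5 per group), and the adjusted p given is the larger of the pair. Among the genes called, 2080 rises and 286 falls were larger than 1 log2 unit and 152 rises and 21 falls larger than 4. The 5 PiZ libraries all lay above the 5 wild-type libraries for 4034 genes (31.7%) and all below for 554 (4.35%). Of the genes tested, 469 had no wild-type library above 1 CPM and so passed the filter through PiZ alone. With wild-type replicate 2 included, 411 genes rose (3.16%) and 123 fell (0.946%) of 13004 tested.

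**Figure D1:**
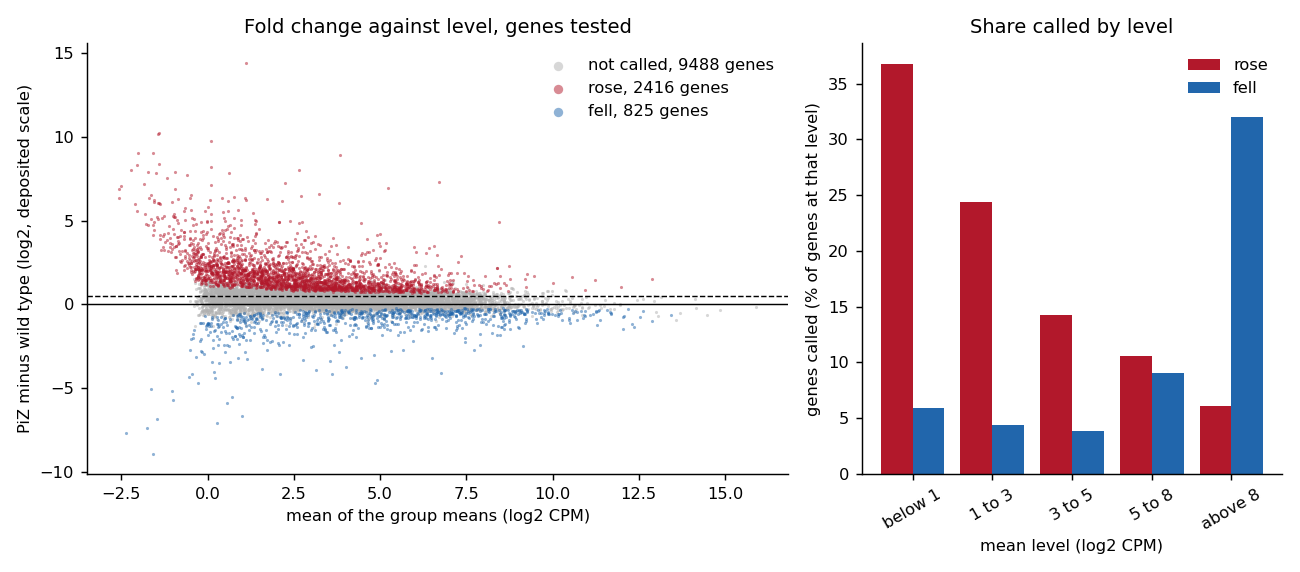
Mean log2 CPM over the 10 libraries (x axis) against the log2 fold change of PiZ over wild type (y axis) for the 12729 genes tested; each point is a gene, coloured by whether it rose, fell or was not called, the dashed line marks the shift of 0.48 between groups, and the bars give the percent of genes called at each level. The cloud is centred above 0, at the median of 0.40, and among the 462 genes above 8 log2 CPM 6.06% rose and 32.0% fell.

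The direction of change differed with the abundance of a gene. Of the 1831 genes with a mean below 1 log2 CPM, 36.8% rose and 5.90% fell. Between 3 and 5 log2 CPM, 14.3% of 4176 genes rose and 3.81% fell, and above 8 log2 CPM, 6.06% of 462 rose and 32.0% fell. The filter let in 469 genes through PiZ alone and 38 through wild type alone. How much of the excess of rises at low level comes from the filter was not tested. In whole liver, fewer cells of a type and less RNA per cell cannot be told apart, and this holds for every gene below.

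The chaperones that fold secreted proteins in the ER rose together. Of 32 ER chaperones and folding enzymes, all of them tested, 17 rose and 0 fell, with a median fold change of 0.89 log2 against 0.40 over all genes. Their summed share of all reads was 0.606% ± 0.064 (SD, n = 5) in wild type and 1.18% ± 0.10 in PiZ, and the groups did not overlap (two-sided exact permutation p = 0.00794, the smallest that the splits of 10 libraries can give; adjusted p = 0.0159 over 12 measures). Hspa5, which encodes BiP, the main Hsp70 chaperone of the ER and the brake on all 3 sensors, was at 10.08, 9.19, 9.33, 9.07 and 9.22 log2 CPM in the wild-type libraries and 10.81, 10.80, 10.75, 10.29 and 10.57 in the PiZ libraries. Wild-type 1 was the highest of its group and PiZ 4 the lowest of its own, and the groups did not overlap; the rise was 1.27 ± 0.18 (adjusted p = 0.00209). Hsp90b1 (GRP94, the ER Hsp90) was at 8.15, 7.76, 8.23, 7.62 and 7.97 log2 CPM in the wild-type libraries and 9.09, 9.18, 9.37, 9.34 and 9.11 in the PiZ libraries, with every PiZ library above every wild-type library and a rise of 1.27 ± 0.13 (adjusted p = 0.00140). Dnajc3 (p58IPK, a BiP co-chaperone) was the tightest of these, at 7.67, 7.45, 7.84, 7.48 and 7.66 log2 CPM in the wild-type libraries and 8.67, 8.70, 8.91, 8.62 and 8.67 in the PiZ libraries, a rise of 1.09 ± 0.10 (adjusted p = 0.00146). The greatest rises in the group were in Fkbp10 (2.47 ± 0.38) and Fkbp11 (2.12 ± 0.27), prolyl isomerases of the ER, in Dnajc10 (2.15 ± 0.13), a disulfide reductase, and in Sdf2l1 (1.97 ± 0.28), a BiP cofactor. The lectin chaperones calnexin (Canx, 0.75 ± 0.09) and calreticulin (Calr, 0.88 ± 0.14), which hold glycoproteins in the folding cycle, did not pass (adjusted p = 0.0552 and 0.103), since neither passed after the shift, and Dnajb9, an IRE1 target, was 0.70 ± 0.17 with adjusted p = 0.331.

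Promoters of these genes are known for the ER stress response element (ERSE), read by ATF6 and XBP1 with NF-Y, and the letters searched were CCAAT and, after any 9 bases, CCACG, on both strands of the window from 250 bases before to 50 after each RefSeq start (GRCm38.p6). Among the tested genes with a promoter in the RefSeq table, 9412 of 12728 symbols, 17 (0.181%) held it. They include 7 of the 25 ER chaperones matched, of which Hspa5, Hsp90b1, Pdia6, Dnajc3 and Creld2 rose and Calr and Canx were not called, and of ER-associated degradation Derl3, which rose, and Syvn1, which was not called. The stretches below show the element in capitals with 12 bases on each side, 5′ to 3′ on the strand that carries it. They are shown because the same letters stand before genes that rose strongly, moderately or were not called.
Hspa5 (chr2:34772013-34772055, plus strand, GRCm38.p6): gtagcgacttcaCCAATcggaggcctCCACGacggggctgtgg
Hsp90b1 (chr10:86705626-86705668, minus strand, GRCm38.p6): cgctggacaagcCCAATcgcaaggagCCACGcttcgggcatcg
Dnajc3 (chr14:118937815-118937857, plus strand, GRCm38.p6): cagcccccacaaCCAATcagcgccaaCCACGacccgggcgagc
Creld2 (chr15:88819508-88819550, minus strand, GRCm38.p6): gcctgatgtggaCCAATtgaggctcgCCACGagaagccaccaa
Derl3 (chr10:75893230-75893272, minus strand, GRCm38.p6): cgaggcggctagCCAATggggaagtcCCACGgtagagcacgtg
Canx (chr11:50325788-50325830, minus strand, GRCm38.p6): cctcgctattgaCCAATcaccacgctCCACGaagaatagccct
A match of letters is not a bound site. The element ended 46 bases before the start in Hspa5. In Hsp90b1 the stretch shown ended 193 bases before the start, and another match, on the opposite strand and not shown, lay 88 bases before it. Both genes rose by the same 1.27 log2. Derl3, which carries it 137 bases upstream, rose by 4.92 ± 0.33 and Canx, 126 bases upstream, was not called.

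In ER-associated degradation, translocation and glycosylation the share of genes that rose was near the 19% of all genes tested. Of 26 degradation genes, 6 rose (23.1%) and 0 fell (median 0.63). Derl3, a channel component that mature hepatocytes use little, was at 0.28, 0.31, 0.24, 0.20 and 0.32 log2 CPM in the wild-type libraries and 5.52, 5.74, 5.77, 3.67 and 5.25 in the PiZ libraries. The wild-type libraries were nearly level, PiZ 4 was the lowest PiZ library and the groups were far apart; the rise was 4.92 ± 0.33 (adjusted p = 2.73e-07). Edem2 and Edem3, which trim mannose from misfolded glycoproteins, rose by 1.04 ± 0.21 and 0.84 ± 0.13, and Selenos, which brings the extracting ATPase to the membrane, by 0.93 ± 0.12. The ligase Syvn1 (HRD1) was 0.94 ± 0.39, its partner Sel1l 0.63 ± 0.11 and the stress-induced Herpud1 -0.14 ± 0.16, none of them called. Without PiZ 3 the count was 3 of 26. Of 25 translocon and signal peptidase genes 5 rose (20%) and 1 fell, led by Sec11c (1.26 ± 0.11) of the signal peptidase and Ssr3 (1.14 ± 0.11) of the translocon-associated complex. Of 28 glycosylation genes 7 rose (25%) and 0 fell, led by Ostc (1.32 ± 0.11), a subunit of the oligosaccharyltransferase, and Gfpt1 (1.23 ± 0.15), which makes the hexosamine precursor. Of 38 COPII and COPI vesicle genes 3 rose, the cargo receptors Tmed3 (1.31 ± 0.20) and Tmed9 (1.07 ± 0.17) and the GTPase Sar1a (0.76 ± 0.13), or 7 without PiZ 4. Edem3 was not called without wild-type 5 or 6 or PiZ 3. Sar1a was not called without wild-type 1, 4, 5 or 6 or PiZ 1, 2 or 3.

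The sensors of the unfolded protein response were called in part. Of 17 sensors and transcription factors, 5 rose and 1 fell, or 8 and 0 without PiZ 4. PERK (Eif2ak3) rose by 1.07 ± 0.26 (adjusted p = 0.0311) and Atf6 by 0.88 ± 0.13 (adjusted p = 0.00446). The IRE1 gene Ern1 (0.38 ± 0.16), its target Xbp1 (0.25 ± 0.25) and Atf4 (0.47 ± 0.16), the main factor downstream of PERK, were not called. Transcript levels do not show splicing of Xbp1 or translation of Atf4. Ddit3 (CHOP), the pro-death factor below ATF4, was at 0.85, 1.06, 0.67, 1.49 and 1.27 log2 CPM in the wild-type libraries and 2.57, 2.85, 3.04, 1.97 and 2.84 in the PiZ libraries; PiZ 4 was again the lowest of its group, the groups did not overlap, and the rise was 1.59 ± 0.23 (adjusted p = 5.18e-04). Creb3l3, a liver ER-anchored factor that regulates lipid and acute-phase genes, fell by 0.42 ± 0.16 (adjusted p = 0.0414) with overlapping groups. Eif2ak3 was not called without wild-type 4 or 6 or PiZ 1, 2, 3 or 5. Creb3l3 was not called without wild-type 1, 3 or 6 or PiZ 1, 2, 3 or 4.

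Many targets of the integrated stress response, among them genes that supply amino acids, rose. Of 27 listed, 22 were tested, 3 of them only because PiZ exceeded 1 CPM, and 13 rose and 0 fell (10 of 19 without those 3). The cystine importer Slc7a11 was at -3.56, -1.17, -1.24, -2.96 and -3.24 log2 CPM in the wild-type libraries and 3.78, 4.21, 3.65, 3.60 and 4.58 in the PiZ libraries. Asparagine synthetase (Asns) was at -1.79, 1.42, -0.67, 0.38 and 0.18 log2 CPM in the wild-type libraries and 4.70, 5.21, 5.08, 4.41 and 5.05 in the PiZ libraries. For both genes the groups were well apart, with rises of 6.40 ± 0.46 and 4.99 ± 0.46 (adjusted p = 7.44e-07 and 4.99e-06). Psat1 of serine synthesis rose by 4.52 ± 0.35, the stress regulators Nupr1 and Trib3 by 4.13 ± 0.53 and 3.03 ± 0.53, and mitochondrial Mthfd2 of folate metabolism by 3.14 ± 0.19. The feedback phosphatase subunit Ppp1r15a (0.17 ± 0.43), Chac1 (-0.04 ± 0.37) and Ddit4 (0.12 ± 0.77), early responders of the same pathway, were not called. Of 20 cytosolic aminoacyl-tRNA synthetases, which charge amino acids for translation, 6 rose and 0 fell, led by Gars (1.38 ± 0.12) and Lars (1.12 ± 0.12).

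Degradation outside the ER was called for single genes rather than whole systems. Of 41 autophagy and lysosome genes tested, 10 rose and 2 fell (median 0.42, near that of all genes). Of the 41, 1 was tested only through PiZ, and 9 of the 40 others rose. The receptor Sqstm1 (p62), which accumulates in hepatocytes with inclusions, rose by 1.52 ± 0.20 (adjusted p = 2.49e-04). Cathepsins Ctss (3.10 ± 0.11) and Ctsk (2.26 ± 0.32) and the proton pump subunit Atp6v0d2 (2.47 ± 0.21), which are abundant in macrophages, had the greatest rises, and the autophagosome proteins Map1lc3a and Map1lc3b fell by 0.78 ± 0.11 and 0.57 ± 0.09. Of 31 constitutive proteasome subunits, 4 rose and 0 fell with a median of 0.62; the count was 1 without PiZ 1 or PiZ 3, 2 without wild-type 1 or 5 and 7 without PiZ 4. Among 22 cytosolic and mitochondrial heat shock chaperones only the small heat shock protein Hspb1 passed (1.47 ± 0.27), while Hspa1a, the inducible Hsp70, was -0.54 ± 0.71 and not called (adjusted p = 0.542).

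The mouse's own alpha-1 antitrypsin genes fell. Of the 5 Serpina1 genes, Serpina1a, b, c and d fell by 0.91 ± 0.12, 0.67 ± 0.11, 0.92 ± 0.18 and 0.58 ± 0.14, and Serpina1e, at 6.70, 7.77, 6.09, 7.47 and 7.07 log2 CPM in the wild-type libraries and 7.50, 6.94, 6.23, 5.58 and 7.29 in the PiZ libraries, was not called (-0.31 ± 0.38, adjusted p = 0.504). Their summed share was 1.28% ± 0.16 of reads in wild type and 0.750% ± 0.063 in PiZ, without overlap (exact permutation p = 0.00794, adjusted p = 0.0159). These genes are near-identical copies, so reads may have been divided among them, and where reads of the human transcript went is not given in the sources used here. In the neighbouring Serpina3 family the members diverged: of 10 tested, 3 rose and 4 fell. Of the 10, 1 was tested only through PiZ, and 2 of the 9 others rose. Serpina3f, an antichymotrypsin-like inhibitor induced in inflammation, was at 2.67, 3.62, 2.40, 3.38 and 3.21 log2 CPM in the wild-type libraries and 10.07, 10.40, 10.76, 10.28 and 10.16 in the PiZ libraries. Every PiZ library was far above every wild-type library, and the rise was 7.28 ± 0.22 (adjusted p = 5.78e-10). Serpina3g and Serpina3i rose by 2.93 ± 0.43 and 1.50 ± 0.35, Serpina3k and Serpina3m fell by 0.62 ± 0.16 and 0.57 ± 0.12, and Serpina3n, a common acute-phase marker, did not pass (-0.08 ± 0.11, adjusted p = 0.532). Serpina3i was not called without PiZ 2.

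**Figure D2:**
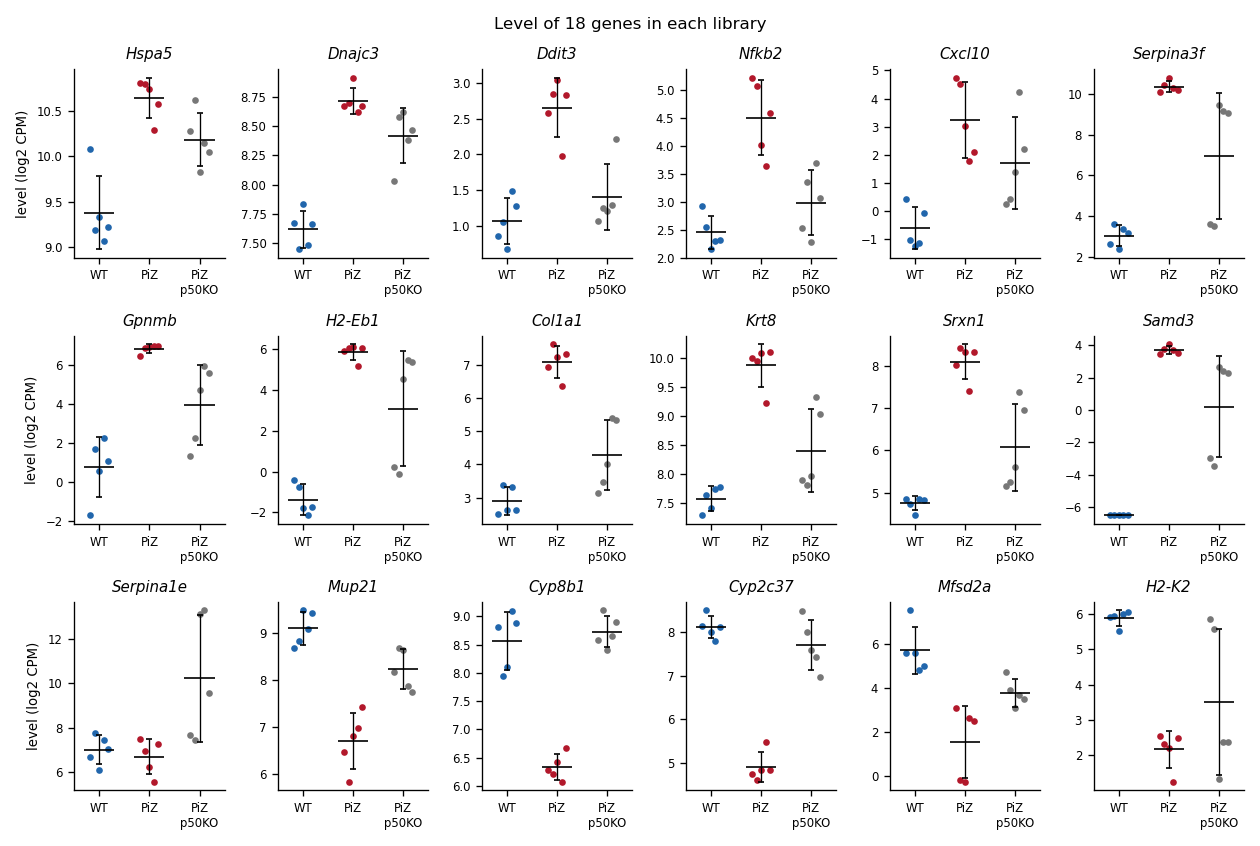
Log2 CPM (y axis) of 18 genes in each library, with wild-type, PiZ and PiZ p50KO libraries as separate columns of points and bars for the mean ± SD. In the panel of Hspa5 the 5 PiZ points lie above the 5 wild-type points, while those of Serpina1e overlap; the p50KO points are shown for reference only.

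Most genes of the NF-kB system rose. Of 14 subunits and feedback inhibitors, all tested, 11 rose and 0 fell (median 1.58). Nfkb2, the precursor of p52 of the non-canonical pathway, was at 2.92, 2.56, 2.16, 2.31 and 2.31 log2 CPM in the wild-type libraries and 5.22, 5.07, 4.01, 3.64 and 4.60 in the PiZ libraries, with every PiZ library above every wild-type library and a rise of 2.06 ± 0.28 (adjusted p = 2.21e-04). Its partner Relb rose by 3.19 ± 0.45 (adjusted p = 1.66e-04). The canonical subunits Nfkb1 (p105/p50) and Rela (p65) rose less, by 0.98 ± 0.17 and 0.81 ± 0.17. Tnfaip3 (A20), a ubiquitin-editing brake on the pathway, was at 1.42, 2.34, 1.40, 1.39 and 0.77 log2 CPM in the wild-type libraries and 5.26, 4.81, 4.27, 4.52 and 4.89 in the PiZ libraries, without overlap and with a rise of 3.29 ± 0.26 (adjusted p = 1.79e-06). Nfkbia, the rapid inhibitor IkB-alpha, was 0.65 ± 0.19 and not called (adjusted p = 0.458). Rela was not called without wild-type 4, 5 or 6 or PiZ 1, 2 or 3.

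Of 32 NF-kB target cytokines, chemokines and survival genes, 22 were tested, 6 of them only through PiZ, and 16 rose and 0 fell (10 of the 16 others; 10 of 16 tested without PiZ 1 or PiZ 2). Ubd (FAT10), a ubiquitin-like modifier induced by inflammatory cytokines, rose by 6.14 ± 0.33 (adjusted p = 1.05e-07). The chemokine Cxcl10 was at 0.43, -1.02, -1.24, -1.12 and -0.05 log2 CPM in the wild-type libraries and 4.73, 4.53, 3.04, 1.78 and 2.10 in the PiZ libraries; the spread within each group was wide, yet no PiZ library reached down to wild type, and the rise was 3.84 ± 0.58 (adjusted p = 2.90e-04). The neutrophil chemokine Cxcl2 and the monocyte chemokine Ccl2 rose by 5.55 ± 0.70 and 4.19 ± 0.56, and the adhesion molecules Icam1 and Vcam1 by 3.19 ± 0.41 and 2.78 ± 0.36. Cxcl1 (1.98 ± 0.66) and the mitochondrial superoxide dismutase Sod2 (-0.19 ± 0.10) were not called.

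The kB motif, in its usual degenerate 10-base form, lay in the promoter window of 12.3% of the 9412 genes, of 8 of 11 matched NF-kB subunits and inhibitors and of 8 of 17 matched targets. Motif-bearing stretches follow for a subunit, an inhibitor, a chemokine, a Serpina3 gene and an uncalled inhibitor, with the 4 outer bases on each side of the motif in capitals.
Nfkb2 (chr19:46305693-46305726, plus strand, GRCm38.p6): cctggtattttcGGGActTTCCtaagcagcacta
Tnfaip3 (chr10:19015514-19015547, minus strand, GRCm38.p6): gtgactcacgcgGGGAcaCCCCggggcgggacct
Cxcl10 (chr5:92349027-92349060, minus strand, GRCm38.p6): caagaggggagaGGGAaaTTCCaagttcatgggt
Serpina3g (chr12:104236050-104236083, plus strand, GRCm38.p6): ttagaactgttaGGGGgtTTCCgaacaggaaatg
Nfkbia (chr12:55492655-55492688, plus strand, GRCm38.p6): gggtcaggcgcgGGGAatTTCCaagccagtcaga
The motif in Nfkbia ended 19 bases before its start and that gene was not called, while Serpina3g, with the motif 75 bases upstream, rose by 2.93 ± 0.43.

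Acute-phase proteins, which hepatocytes secrete in inflammation, split by member. Of 32, 11 rose and 7 fell, or 4 fell without PiZ 2 or PiZ 3. Lcn2 (lipocalin 2), an iron-siderophore binding protein, was at 1.35, 2.77, 1.62, 1.86 and 1.26 log2 CPM in the wild-type libraries and 8.97, 9.17, 8.68, 7.99 and 8.61 in the PiZ libraries; the groups lay far apart and the rise was 6.91 ± 0.28 (adjusted p = 6.58e-09). The interleukin-1 receptor antagonist Il1rn, the endotoxin co-receptor Cd14 and metallothionein Mt2 rose by 4.38 ± 0.33, 4.08 ± 0.43 and 3.67 ± 0.93. Serum amyloids Saa1, Saa2 and Saa3 rose by 2.00 ± 0.17, 3.14 ± 0.22 and 2.18 ± 0.25, while the constitutive Saa4 fell by 0.61 ± 0.11. The fibrinogen chains Fga, Fgb and Fgg, positive reactants in most acute-phase responses, fell by 0.45 ± 0.11, 0.30 ± 0.10 and 0.37 ± 0.12. C-reactive protein (Crp, -0.04 ± 0.11) and the iron hormone Hamp (0.30 ± 0.28) were not called. Fgb was not called without wild-type 1 or 6 or PiZ 2, 3 or 5. Fgg was not called without PiZ 2 or 3.

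Most interferon-stimulated genes rose. Of 44 listed, 42 were tested, 6 of them only through PiZ, and 37 rose and 0 fell (31 of the 36 others), with a median of 1.96 against 0.40 over all genes. Oas1a, which makes the activator of RNase L, was at -0.52, 0.10, -2.20, -0.17 and -1.54 log2 CPM in the wild-type libraries and 3.58, 3.51, 3.33, 2.28 and 3.19 in the PiZ libraries, without overlap and with a rise of 4.04 ± 0.42 (adjusted p = 8.69e-06). Its relatives Oas2 and Oas3 rose by 4.09 ± 0.29 and 3.87 ± 0.36, and the antiviral effectors Ifit1 and Isg15 by 2.01 ± 0.26 and 2.57 ± 0.24. Of the factors that carry the signal, Irf7 rose by 2.51 ± 0.20 and Irf9 by 1.08 ± 0.13, while Stat2 (0.63 ± 0.15) was not called. Guanylate-binding proteins, GTPases of cell-autonomous immunity, were led by Gbp3 (2.06 ± 0.27) and Gbp6 (1.90 ± 0.31).

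The interferon-stimulated response element, searched as GAAA and, after any 2 bases, GAAACT, on both strands, lay in the window of 0.404% of all matched genes and of 12 of the 28 interferon-stimulated genes matched, 11 of which rose. These examples, the element in capitals, come from both families and from Bst2, the member that was not called.
Ifit1 (chr19:34640771-34640806, minus strand, GRCm38.p6): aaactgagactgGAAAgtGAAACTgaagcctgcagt
Gbp2 (chr3:142620590-142620625, minus strand, GRCm38.p6): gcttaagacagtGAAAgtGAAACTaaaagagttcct
Irgm1 (chr11:48871421-48871456, minus strand, GRCm38.p6): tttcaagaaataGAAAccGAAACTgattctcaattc
Bst2 (chr8:71537579-71537614, minus strand, GRCm38.p6): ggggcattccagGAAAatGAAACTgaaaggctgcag
Gbp2 rose by 1.85 ± 0.18, Irgm1, another immunity GTPase, by 0.83 ± 0.13, and Bst2 (tetherin), with the element 118 bases upstream, was 0.83 ± 0.24 (adjusted p = 0.164). Irgm1 was not called without PiZ 1.

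Antigen presentation divided by class. Of 8 MHC class II genes tested (10 listed, 3 of the 8 only through PiZ), 7 rose and 0 fell; without any 1 PiZ library fewer were tested and 4 rose. H2-Eb1, a class II beta chain, was at -0.41, -0.77, -1.81, -2.14 and -1.75 log2 CPM in the wild-type libraries and 5.90, 6.04, 6.09, 5.18 and 6.01 in the PiZ libraries, without overlap and with a rise of 7.22 ± 0.32 (adjusted p = 1.29e-08). The other class II chains H2-Aa and H2-Ab1 rose by 1.43 ± 0.18 and 1.95 ± 0.15. The invariant chain Cd74 rose by 2.34 ± 0.19 and the class II transactivator Ciita by 2.25 ± 0.27. Of 20 class I and immunoproteasome genes 5 rose (25%, against 19% of all genes) and 2 fell, with a median of 0.48 against 0.40. The peptide transporter Tap1 and its bridge Tapbp each rose by 1.46 (SE 0.22 and 0.17). The main class I chains H2-K1 (0.55 ± 0.15), H2-D1 (0.60 ± 0.17) and B2m (0.33 ± 0.12) were not called. H2-K2, a class I gene of the same cluster on chromosome 17, was at 5.90, 5.94, 5.50, 6.00 and 6.06 log2 CPM in the wild-type libraries and 2.54, 2.32, 2.21, 1.25 and 2.49 in the PiZ libraries and fell by 3.72 ± 0.22 (adjusted p = 1.13e-07), with PiZ 4 the lowest of its group. Reads of MHC genes are hard to assign to one copy, so single members are uncertain.

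Macrophage transcripts rose, and most of all those of recruited and lipid-associated macrophages. Of 23 such markers 21 were tested, 6 only through PiZ, and 20 rose and 0 fell (14 of the 15 others), with a median of 3.39. Gpnmb, a glycoprotein of lipid-laden macrophages, was at -1.70, 1.72, 0.58, 2.25 and 1.09 log2 CPM in the wild-type libraries and 6.46, 6.90, 6.90, 6.98 and 7.0 in the PiZ libraries, a rise of 6.06 ± 0.56 (adjusted p = 6.88e-06). PiZ 1 was the lowest of its group and still far above every wild-type library. Mmp12, the macrophage elastase, rose by 6.61 ± 0.33, the lipid receptor Trem2 by 4.09 ± 0.37, the integrin Itgax (CD11c) by 5.04 ± 0.36 and the monocyte markers Ccr2 and Ly6c2 by 3.39 ± 0.21 and 3.33 ± 0.31. Of 13 markers of resident Kupffer cells 9 rose and 1 fell, by smaller steps: Marco 2.31 ± 0.30, Adgre1 (F4/80) 1.74 ± 0.18, Clec4f 1.21 ± 0.16, Vsig4 1.25 ± 0.16. Timd4, a marker of long-lived resident cells, was 0.64 ± 0.21 and not called, and the scavenger receptor Cd163 fell by 2.11 ± 0.23 (adjusted p = 1.06e-05).

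Markers of other leukocytes were mostly too low to test. Of 27 T and NK cell markers 2 passed the filter; Cd3e had 25 reads over all 5 wild-type libraries and 108 over the PiZ libraries, and Cd8a 13 and 75. Of 16 neutrophil markers 6 were tested and 2 rose, Lcn2, which hepatocytes make as well, and the growth factor receptor Csf3r (1.61 ± 0.41); S100a8 (1.04 ± 0.67) and S100a9 (1.74 ± 0.69) were not called, and the granule enzyme Mpo had 0 reads in wild type and 6 in PiZ. Among B and plasma cell markers 5 of 15 were tested, 1 of them only through PiZ, and 4 rose (3 of the 4 others). The rises were Cd22, Jchain, Igkc and Ighm, by 2.54 ± 0.31, 2.12 ± 0.50, 2.00 ± 0.29 and 1.93 ± 0.30. Of 19 endothelial markers tested 3 rose (15.8%, against 19% of all genes) and 1 fell. Cd34, Lyve1 and Plvap rose by 1.98 ± 0.22, 1.33 ± 0.19 and 1.11 ± 0.16, and Stab2 was 0.53 ± 0.15, not called. Pancreatic acinar transcripts varied between libraries of several groups. Their summed level was at most 23.9 CPM in the wild-type libraries, 27.7 to 136 in the PiZ libraries, and reached 1738 CPM in PiZ p50KO and 5424 in wild type after TNFa. Of 18 listed 3 were tested, 2 of them only through PiZ, and those 2, Spink1, a trypsin inhibitor (4 reads over the wild-type and 1655 over the PiZ libraries), and the elastase Cela2a (3.02 ± 0.64) rose. The chymotrypsinogen Ctrb1 lay between -2.90 and 4.69 log2 CPM in the PiZ libraries and at most at -0.67 in wild type, and lipase Pnlip between -2.62 and 3.11 against at most -2.65, both below the filter of 5 libraries. Whether tissue from the pancreas was present was not tested. Csf3r was not called without wild-type 1 or 6 or PiZ 2 or 5.

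**Figure D3:**
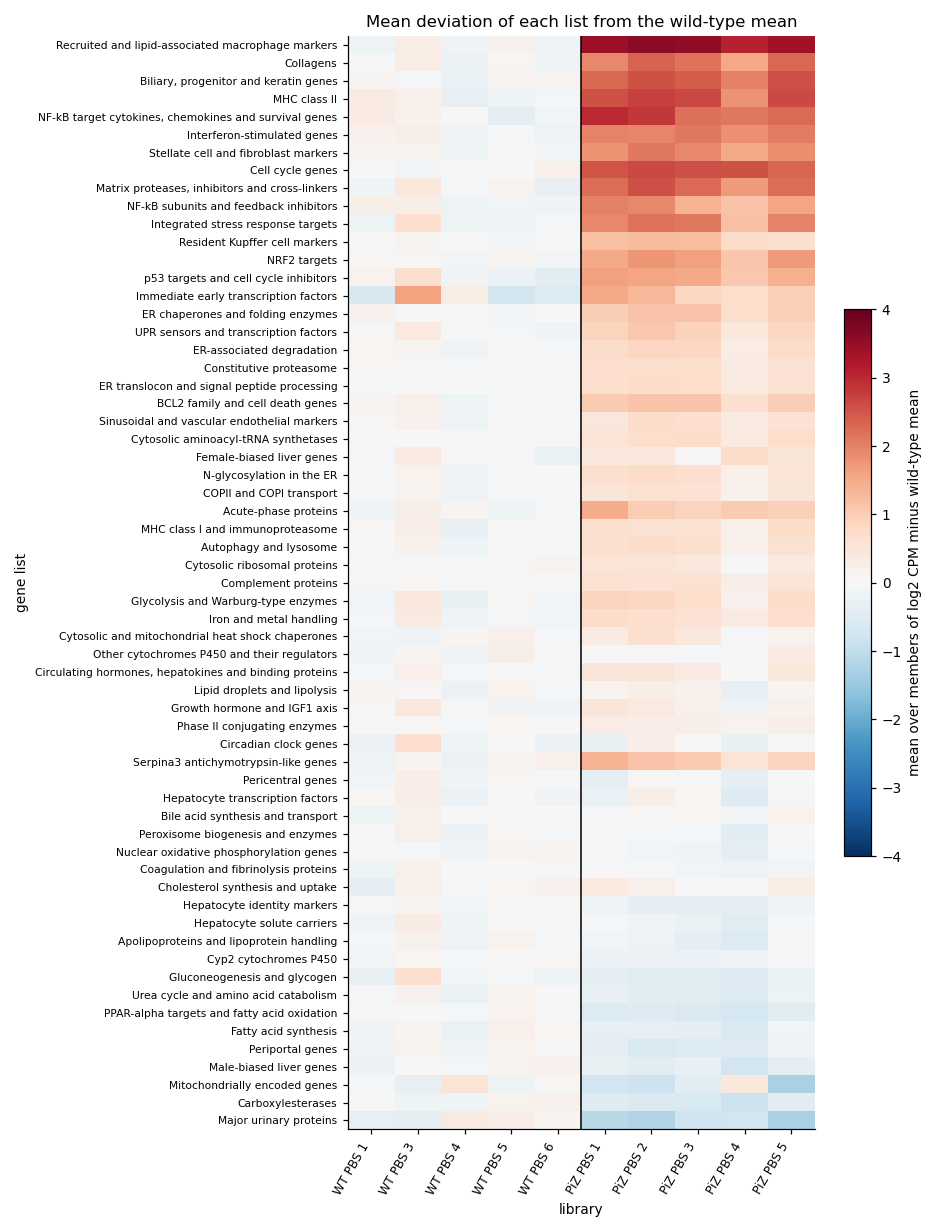
Mean log2 deviation from the wild-type mean (colour) of the members tested of each gene list (rows) in the 10 libraries (columns). Macrophage, collagen and interferon rows are raised in all 5 PiZ columns, with PiZ 4 the palest in most of them, and most rows of hepatocyte metabolism are slightly lowered.

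Genes of scar formation rose as a group. Of 19 collagens, all tested, 16 rose and 0 fell (median 2.21), and 14 of the 17 that did not pass through PiZ alone rose. Collagen transcripts made up 0.101% ± 0.013 of reads in wild type and 0.167% ± 0.034 in PiZ (exact permutation p = 0.00794, adjusted p = 0.0159). Col1a1, the main chain of fibrillar scar collagen, was at 2.51, 3.39, 2.61, 3.31 and 2.62 log2 CPM in the wild-type libraries and 6.94, 7.61, 7.24, 6.35 and 7.32 in the PiZ libraries, and all PiZ libraries exceeded all wild-type libraries, with a rise of 4.20 ± 0.25 (adjusted p = 9.13e-08). Col3a1 and Col1a2 rose by 3.44 ± 0.16 and 3.21 ± 0.27, whereas Col18a1, which hepatocytes themselves express, was -0.25 ± 0.14 and not called (adjusted p = 0.157). Of 21 stellate cell and fibroblast markers tested 19 rose and 0 fell: Lox, a collagen cross-linker, by 3.60 ± 0.26, the platelet-derived growth factor receptors Pdgfra and Pdgfrb by 2.58 ± 0.20 and 2.37 ± 0.21, and smooth muscle actin Acta2, the usual sign of stellate cell activation, by 1.94 ± 0.23. Lrat, which stores retinol in quiescent stellate cells, was 1.19 ± 0.27 and not called. Of the 21 stellate cell and fibroblast markers 1 was tested only through PiZ, and 18 of the 20 others rose. Of 29 matrix proteases, inhibitors and cross-linkers tested, 8 only through PiZ, 19 rose and 0 fell, and 11 of the 21 others; leaving out any 1 PiZ library also left 11 of 21. The collagenase Mmp13 and the protease inhibitor Timp1 rose by 7.70 ± 0.53 and 5.63 ± 0.72.

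Keratins and genes of the biliary and progenitor state rose as well, 17 of 20 tested and 0 falling (29 listed). Of the 20, 1 was tested only through PiZ, and 16 of the 19 others rose. Krt8, the type II keratin of hepatocytes, was at 7.29, 7.65, 7.42, 7.75 and 7.78 log2 CPM in the wild-type libraries and 10, 9.96, 10.09, 9.23 and 10.11 in the PiZ libraries. Krt18, its partner, was at 7.18, 7.14, 7.23, 7.28 and 7.68 log2 CPM in the wild-type libraries and 9.80, 9.52, 9.56, 8.94 and 9.66 in the PiZ libraries. The groups did not overlap for either gene, PiZ 4 was the lowest PiZ library for Krt8 and wild-type 6 the highest wild-type library for Krt18, and the rises were 2.30 ± 0.17 and 2.19 ± 0.16. Krt19, of bile duct cells, rose by 1.20 ± 0.26, the progenitor marker Sox4 by 4.02 ± 0.39 and the fetal protein Afp by 1.92 ± 0.22; Sox9 and Epcam, of ductular cells, rose by 1.60 ± 0.29 and 1.83 ± 0.24, and Krt7 (0.92 ± 0.33) was not called. Ly6d, a small surface protein, was at -0.92, -0.77, -2.75, 0.01 and -2.31 log2 CPM in the wild-type libraries and 6.59, 6.95, 6.68, 5.71 and 7.31 in the PiZ libraries, a rise of 7.99 ± 0.48 (adjusted p = 1.10e-07). The annexins Anxa2 and Anxa5, membrane-binding proteins, rose by 3.68 ± 0.17 and 2.55 ± 0.12. Krt19 was not called without wild-type 1, 4 or 5 or PiZ 1 or 5.

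Cell division genes were low in wild-type liver and higher in PiZ. Of 44 listed 40 were tested, 17 of them only because all 5 PiZ libraries exceeded 1 CPM, and 29 rose and 1 fell; of the 23 others 12 rose, as did 12 or 13 of 23 when any 1 PiZ library was left out. Mki67, which marks cycling cells, was at -3.91, -4.08, -2.37, -2.96 and -4.10 log2 CPM in the wild-type libraries and 2.33, 2.13, 1.02, 2.88 and 2.09 in the PiZ libraries, without overlap and with a rise of 5.57 ± 0.43 (adjusted p = 3.38e-06). The mitotic cyclin Ccnb1 and the G1 cyclin Ccnd1 rose by 6.91 ± 0.76 and 3.26 ± 0.25, and the replicative helicase subunits Mcm5 and Mcm6 by 2.07 ± 0.20 and 1.65 ± 0.25. The repressor E2f8 fell by 0.86 ± 0.30 and the clamp Pcna (0.65 ± 0.10) was not called. Of 23 p53 targets and cell cycle inhibitors tested, 2 only through PiZ, 9 rose and 0 fell, and 7 of the 21 others rose. The inhibitor Cdkn1a (p21) was at 3.50, 3.47, 2.62, 2.71 and 2.32 log2 CPM in the wild-type libraries and 7.11, 5.62, 5.89, 5.39 and 6.04 in the PiZ libraries, without overlap, a rise of 3.08 ± 0.32 (adjusted p = 1.47e-05). The death receptor Tnfrsf10b rose by 4.81 ± 0.58. Among 29 cell death genes 8 rose and 0 fell, 4 of the 8 having passed the filter only through PiZ. Of the 25 others 4 rose, beside 1954 of 12260 over all genes that did not pass through PiZ alone. When any 1 PiZ library was left out, 3 to 5 of 25 rose. The 8 rises were led by Casp12 (4.97 ± 0.35), an ER-associated caspase of mice, Casp4 (4.54 ± 0.45), an inflammatory caspase, and Mlkl (3.48 ± 0.19), the effector of necroptosis. E2f8 was not called without wild-type 4.

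Targets of the antioxidant factor NRF2 rose in part: of 31 tested 17 rose and 1 fell (median 1.04). Of the 31, 1 was tested only through PiZ, and 16 of the 30 others rose. Srxn1 (sulfiredoxin) was at 4.86, 4.74, 4.46, 4.86 and 4.82 log2 CPM in the wild-type libraries and 8.01, 8.40, 8.32, 7.40 and 8.33 in the PiZ libraries, with no overlap and a rise of 3.34 ± 0.18 (adjusted p = 4.40e-08). The quinone reductase Nqo1 and the glutathione transferase Gstm3 rose by 2.43 ± 0.22 and 4.90 ± 0.19, while Gclm (0.16 ± 0.09) and Gclc (0.95 ± 0.21) of glutathione synthesis were not called and malic enzyme Me1 fell by 0.56 ± 0.16. The antioxidant response element, searched as TGAC and, after any 3 bases, GCA, on both strands, was in 3 of the 26 promoters matched and in 3.39% of all. Of 27 glycolysis genes 7 rose (25.9%, against 19% of all genes) and 1 fell, with a median of 0.33 against 0.40 over all genes. Among the rises were isoforms that hepatocytes use little, hexokinase Hk2 (2.44 ± 0.34) and muscle pyruvate kinase Pkm (2.08 ± 0.12). The liver pyruvate kinase Pklr was at -0.25 ± 0.17, not called.

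Hepatocyte genes fell in many of the pathways listed, and of 18 hepatocyte identity markers 8 fell and 0 rose. Of 52 urea cycle and amino acid catabolism genes, 29 fell and 1 rose, with a median of -0.38. Hal, which starts histidine breakdown, was at 9.09, 8.85, 8.95, 9.25 and 9.32 log2 CPM in the wild-type libraries and 7.27, 6.92, 7.32, 7.67 and 7.81 in the PiZ libraries and fell by 1.70 ± 0.16 (adjusted p = 4.59e-06). Cps1, the entry enzyme of the urea cycle, fell by 0.57 ± 0.16 with overlapping groups, and Otc, the next enzyme, by 0.27 ± 0.10; the cycle enzymes Asl, Ass1 and Arg1 fell by 0.82 ± 0.15, 0.50 ± 0.13 and 0.61 ± 0.15. Of 20 genes of gluconeogenesis and glycogen 6 fell and 0 rose; G6pc, which releases glucose, fell by 1.27 ± 0.24 and Pck1 was -0.11 ± 0.25, not called. With wild-type replicate 2 included, 0 of either list passed. Otc was not called without wild-type 4, 5 or 6 or PiZ 2, 3 or 5.

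Lipid pathways followed the same direction. Of 26 fatty acid synthesis genes 12 fell and 1 rose: Thrsp, a lipogenic regulator, fell by 1.99 ± 0.29, the desaturase Scd1 by 1.18 ± 0.20 and the factor Srebf1 by 1.14 ± 0.43, and Fasn (-0.38 ± 0.25) was not called. Mogat1, an acyltransferase of fatty liver, rose by 2.90 ± 0.42. Of 44 targets of PPAR-alpha and enzymes of fatty acid oxidation 21 fell and 0 rose. Vnn1 (pantetheinase) was at 5.67, 4.66, 4.87, 5.23 and 4.98 log2 CPM in the wild-type libraries and 1.12, 1.52, 1.43, 0.99 and 0.81 in the PiZ libraries, without overlap, and fell by 3.91 ± 0.20 (adjusted p = 3.61e-08). Acot3 fell by 2.84 ± 0.54, acyl-CoA synthetase Acsl1 by 1.11 ± 0.11, the receptor gene Ppara itself by 0.83 ± 0.23, and Cpt1a, the gate of mitochondrial uptake, was -0.30 ± 0.21, not called. Among 24 lipid droplet genes 6 fell and 4 rose: the lipase inhibitor G0s2 fell by 3.00 ± 0.65 and the fatty acid carrier Fabp1 by 1.20 ± 0.12, and Lpl, a lipase that adult hepatocytes hardly express, rose by 3.90 ± 0.12. Of 28 cholesterol genes 5 fell and 1 rose, or 9 fell without wild-type 1. The 1 rise was the gene tested only through PiZ, and 0 of the 27 others rose. Mfsd2a, a transporter of lysophospholipids that carry omega fatty acids, was at 5.59, 7.50, 5.57, 4.78 and 4.98 log2 CPM in the wild-type libraries and 3.09, -0.18, -0.26, 2.60 and 2.49 in the PiZ libraries and fell by 4.14 ± 0.71 (adjusted p = 4.14e-04). Srebf1 was not called without wild-type 5 or 6 or PiZ 1, 2, 3 or 4.

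In bile acid synthesis and transport 6 of 30 genes fell and 2 rose. Cyp8b1, which makes the precursor of cholic acid, was at 8.81, 7.94, 8.10, 9.09 and 8.87 log2 CPM in the wild-type libraries and 6.29, 6.22, 6.43, 6.08 and 6.68 in the PiZ libraries, without overlap, and fell by 2.22 ± 0.21 (adjusted p = 4.60e-06). Cyp7a1, the rate-limiting enzyme of the classic route, was -0.99 ± 0.72 and not called (adjusted p = 0.261). The uptake carrier Slc10a1 (NTCP) fell by 1.17 ± 0.13, the sinusoidal exporter Abcc4 rose by 3.24 ± 0.28, and the canalicular pump Abcb11 was 0.58 ± 0.09, not called.

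Secreted plasma proteins fell in part. Apolipoprotein and lipoprotein genes made up 5.58% ± 0.37 of reads in wild type and 4.19% ± 0.40 in PiZ (exact permutation p = 0.00794, adjusted p = 0.0159); 8 of 27 fell and 1 rose, Apoa1 of high-density lipoprotein by 0.96 ± 0.14, while Apob was 0.04 ± 0.13, not called. Of 32 coagulation and fibrinolysis genes 12 fell and 0 rose, among them prothrombin F2 (-0.47 ± 0.15) and plasminogen Plg (-0.50 ± 0.09). Of 30 complement genes 6 rose (20%, near the 19% of all genes) and 5 fell (16.7%, against 6.48%), or 3 fell without wild-type 5 or 6. The terminal component gene Hc (C5) rose by 2.91 ± 0.11 and the receptors C3ar1 and C5ar1 rose by 3.11 ± 0.16 and 2.74 ± 0.24; central C3 (0.42 ± 0.12) was not called. Cfhr2, a factor H-related gene outside that list, was at 8.96, 9.14, 9.09, 9.10 and 9.08 log2 CPM in the wild-type libraries and 6.39, 6.28, 6.20, 6.56 and 6.43 in the PiZ libraries, with no overlap, and fell by 2.70 ± 0.09 (adjusted p = 4.94e-09). F2 was not called without wild-type 5 or PiZ 3.

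**Figure D4:**
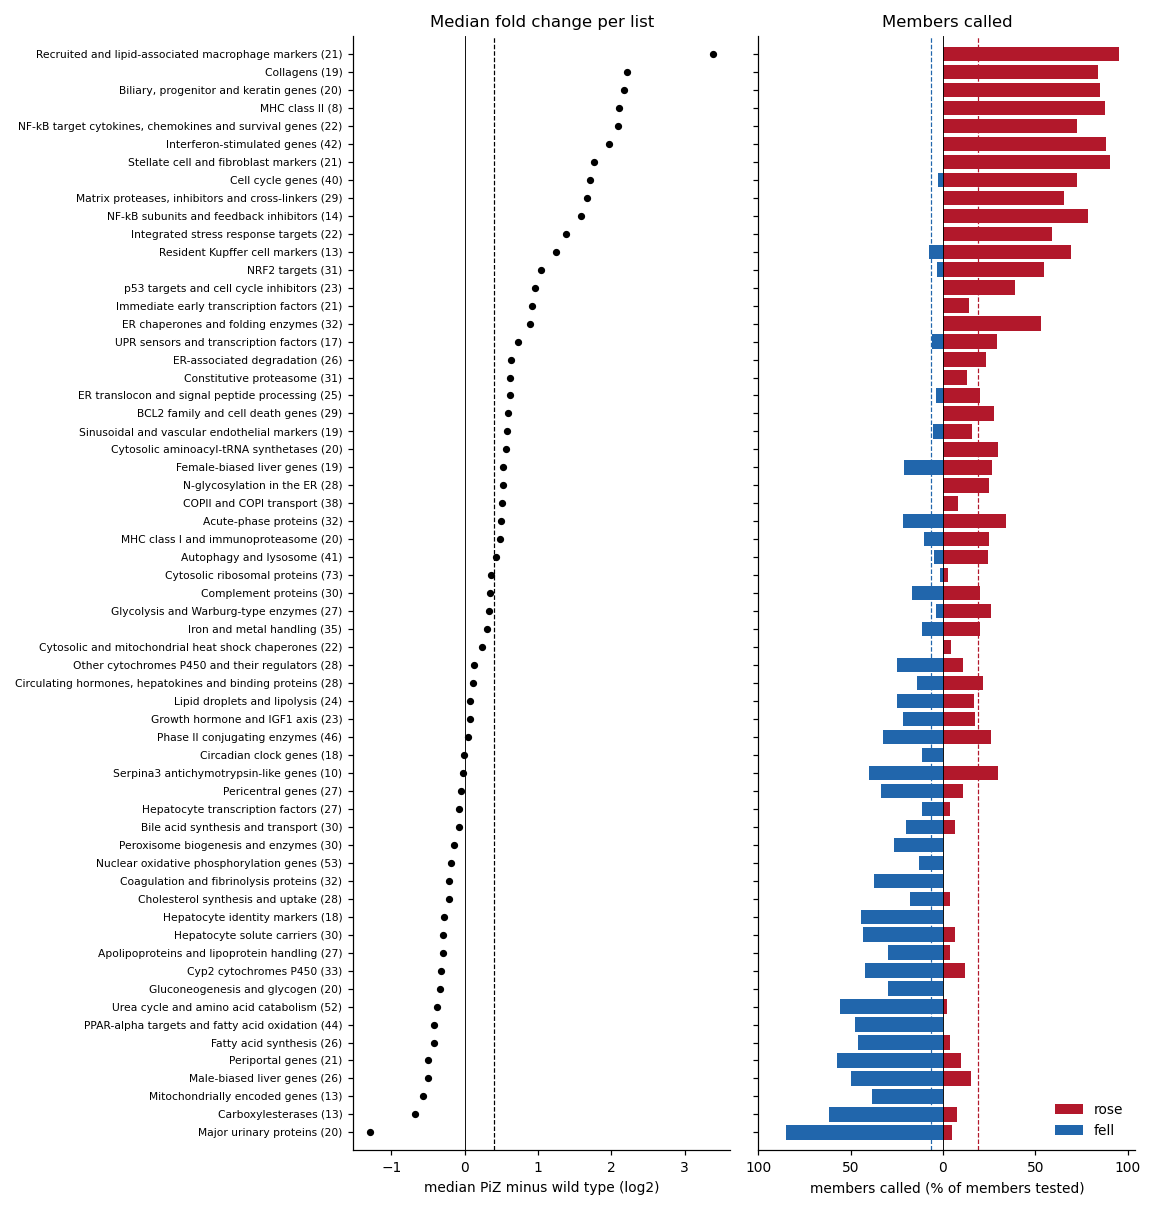
Median log2 fold change of the members tested (left) and percent of members called (right, rises and falls) for each gene list with at least 8 members tested. Dashed lines mark the values over all 12729 genes: the median of 0.40, and 19% rising and 6.48% falling.

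Drug-metabolising enzymes had members that fell and members that rose. Of 33 Cyp2 genes tested 14 fell and 4 rose. Cyp2c37, a pericentral epoxygenase, was at 8.14, 8.49, 8.0, 7.79 and 8.10 log2 CPM in the wild-type libraries and 4.75, 4.62, 4.84, 5.48 and 4.84 in the PiZ libraries; PiZ 4 was the highest of its group and still below wild type, and the fall was 3.20 ± 0.17 (adjusted p = 4.34e-08). Its neighbours Cyp2c50 and Cyp2c54 fell by 2.48 ± 0.16 and 1.77 ± 0.16, but Cyp2c39 of the same cluster rose by 4.14 ± 0.20. Cyp2a4 and Cyp2a5 rose by 3.67 ± 0.31 and 1.79 ± 0.30, and Cyp2e1, of ethanol and paracetamol oxidation, fell by 1.36 ± 0.14. These genes are close copies, so reads of one may be counted for another. Cyp17a1, of steroid synthesis, fell by 4.15 ± 0.40, and the xenobiotic receptor Nr1i3 (CAR) by 1.13 ± 0.24. Of 46 conjugating enzymes 12 rose and 15 fell, with Gstm3 and Gsta1 rising by 4.90 ± 0.19 and 3.17 ± 0.32, Ugt1a9 by 2.97 ± 0.11, and Ugt1a1 and Ugt1a5 falling by 1.65 ± 0.12 and 2.44 ± 0.17. The Ugt1a transcripts share their last exons, which limits how reads can be divided among them. Of 13 carboxylesterases, 1 of them tested only through wild type, 8 fell and 1 rose. The falls were led by Ces4a (-2.20 ± 0.40) and Ces3b (-1.49 ± 0.17).

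Major urinary proteins, pheromone carriers under growth hormone control, fell: 17 of 20 tested fell and 1 rose, and their share of reads went from 1.01% ± 0.15 to 0.484% ± 0.065 (exact permutation p = 0.00794, adjusted p = 0.0159). Mup21 was at 8.68, 8.82, 9.49, 9.08 and 9.44 log2 CPM in the wild-type libraries and 6.46, 5.83, 6.81, 6.97 and 7.43 in the PiZ libraries, without overlap, and fell by 2.40 ± 0.26 (adjusted p = 1.24e-05). Mup20 (darcin), at 7.98, 8.34, 9.26, 8.86 and 8.65 log2 CPM in the wild-type libraries and 10.18, 10.12, 10.67, 10.02 and 10.64 in the PiZ libraries, went the other way and rose by 1.71 ± 0.22 (adjusted p = 0.00118). These genes are near-identical and single members are uncertain, and with wild-type replicate 2 included 0 of them passed. Of 26 genes known as male-biased in mouse liver 4 rose and 13 fell, among the falls Hsd3b5 by 2.72 ± 0.18. Of 19 female-biased genes tested, 1 only through PiZ, 5 rose (4 of the 18 others) and 4 fell, with fold changes between -4.15 (Cyp17a1) and 4.14 (Cyp2c39). On the growth hormone axis, the receptor Ghr fell by 0.41 ± 0.08 and the carrier Igfals by 1.22 ± 0.25, the feedback gene Cish rose by 1.98 ± 0.35, and Igf1 (0.07 ± 0.12) and Stat5b (0.19 ± 0.22) were not called.

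Genes of both ends of the liver lobule were among the falls. Of 27 pericentral genes 9 fell, 3 rose and 15 were not called (median -0.05), with Glul, the glutamine synthetase of the last hepatocyte layer, falling by 1.40 ± 0.10 and Axin2, a Wnt feedback gene, at 1.20 ± 0.32 and not called. Of 21 periportal genes 12 fell and 2 rose, and Pigr, the immunoglobulin transporter, fell by 1.83 ± 0.21 (adjusted p = 1.97e-05). Of 27 hepatocyte transcription factors 3 fell and 1 rose: Nr1i3, Ppara and Klf15 (-0.47 ± 0.16) fell, and Cebpa (-0.44 ± 0.33) and Nr1h4 (-0.15 ± 0.18) were not called. Klf15 was not called without wild-type 5 or 6 or PiZ 3.

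Few cytosolic ribosomal protein genes were called. Falls took 13.2% of nuclear oxidative phosphorylation genes and 38.5% of mitochondrially encoded genes, against 6.48% of all genes tested. Of 73 cytosolic ribosomal protein genes 2 rose and 1 fell, although 40 passed as higher on the deposited values alone, and their summed share of reads was 1.40% ± 0.087 in wild type and 1.82% ± 0.25 in PiZ (exact permutation p = 0.0238, adjusted p = 0.0408). Of 53 nuclear genes of oxidative phosphorylation 7 fell and 0 rose (13 fell without wild-type 3), and of 18 clock genes 2 fell. Of the 13 mitochondrially encoded genes 5 fell with all libraries, 13 without PiZ 4, and 3 without wild-type 4, wild-type 6, PiZ 1, PiZ 2 or PiZ 5; their share of reads was 12.4% ± 4.3 in wild type and 9.27% ± 5.8 in PiZ (exact permutation p = 0.365, adjusted p = 0.398). Without PiZ 4 the mitochondrial share differed by -5.62 percentage points, PiZ minus wild type (unadjusted exact permutation p = 0.0317). Of 21 immediate early factors, which respond to handling within minutes, 3 rose (Egr2, Myc and Klf6). Of the 21, 1 was tested only through PiZ, and 2 of the 20 others rose. Without wild-type 3, the library of the 10 with the highest mean of this list, 8 rose. Myc rose by 2.53 ± 0.27 (adjusted p = 4.46e-05). The share of reads held by the 50 most abundant genes was 41.6% ± 3.1 in wild type and 35.7% ± 4.6 in PiZ, which did not pass (exact permutation p = 0.0556, adjusted p = 0.0667; unadjusted p = 0.0159 without PiZ 4 and 0.0397 without wild-type 3), and PiZ libraries had 12768 to 13202 genes above 1 CPM against 11683 to 12045 (exact permutation p = 0.00794, adjusted p = 0.0159).

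**Figure D5:**
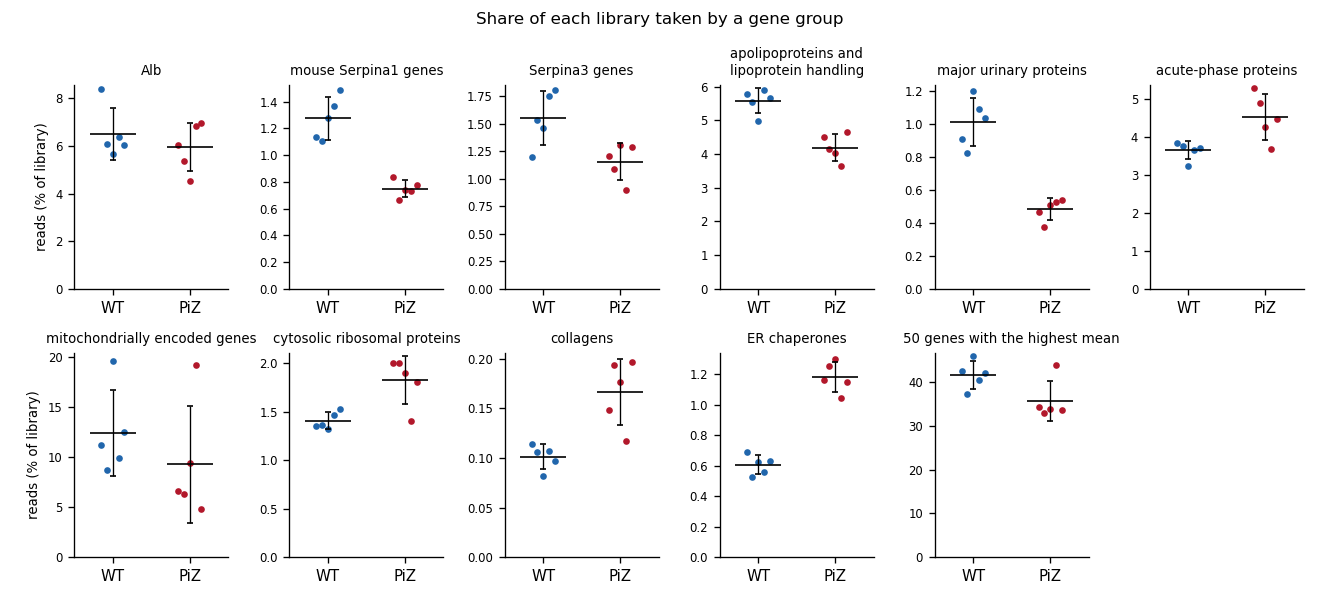
Percent of all reads (y axis) held by 11 gene groups in each library, wild type and PiZ side by side, with the mean ± SD. ER chaperones and collagens are higher in every PiZ library, Serpina1, major urinary protein and apolipoprotein groups lower in every one, and albumin and mitochondrial shares overlap.

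The greatest rises included genes that wild-type liver hardly transcribes. Samd3 (chromosome 10, 26229707 to 26272172, GRCm38), a little-studied gene of lymphocytes, had 0 reads in all 5 wild-type libraries and 2995 reads over the PiZ libraries, where it lay at 3.45 to 4.06 log2 CPM; against a floor of 3 reads over the group it was at least 1025-fold higher. Vmn2r3, a pheromone receptor gene of the olfactory system, had 0 and 2954 reads, at least 1010-fold higher, and Pirt, a regulator of a sensory ion channel, 0 and 1517 reads, at least 519-fold higher. All 5 PiZ libraries had reads of these genes and no wild-type library had any; for Pirt, PiZ 4 was the lowest of its group. Wfdc16, a small protease inhibitor, had 2 and 2020 reads and Npc1l1, the intestinal cholesterol transporter that mouse liver lacks, 1 and 1143. Slamf7, a receptor of leukocytes, rose by 9.76 ± 0.65, and Ggt1, the gamma-glutamyl transferase of bile duct cells and of liver tumours, was at -3.03, -3.59, -2.75, -6.52 and -4.10 log2 CPM in the wild-type libraries and 3.61, 4.68, 4.66, 3.21 and 4.82 in the PiZ libraries, a rise of 8.20 ± 0.63 (adjusted p = 9.25e-07). A lincRNA with a predicted name, Gm13974 on chromosome 2, chosen after its values were seen, went from 2 reads over the wild-type libraries to 73836 and lay at 8.09 to 8.61 log2 CPM in PiZ, the range of abundant liver transcripts. The antisense gene Gm42984 on chromosome 5, chosen in the same way, had 167 and 73531 reads; whether the counting used strand is not given in the sources used here, so reads of overlapping genes cannot be told apart.

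The greatest falls began with an enzyme of lipid metabolism. Gdpd3, a phospholipid-cleaving enzyme, was at 4.14, 4.12, 3.38, 4.04 and 3.33 log2 CPM in the wild-type libraries and -4.20, -2.82, -4.26, -2.47 and -2.56 in the PiZ libraries, far below wild type in every PiZ library, a fall of 7.07 ± 0.39 (adjusted p = 6.59e-08). Sbk2, a kinase, and Clec2h, a lectin-like receptor, fell by 5.88 ± 0.27 and 5.54 ± 0.44, and Erbb4, a receptor of neuregulins, by 3.51 ± 0.38. Hnf4aos, antisense to Hnf4a, fell by 3.26 ± 0.31 while Hnf4a itself was not called, with the same reservation on strand. Over all antisense genes tested, 28 of 74 fell and 4 rose, and of lincRNAs 33 of 108 fell and 15 rose, against 685 and 2324 of 11540 protein-coding genes.

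With wild-type replicate 2 included, fewer members passed in each of the following lists. ER chaperones went from 17 to 2 of 32, interferon-stimulated genes from 37 to 13 of 42, collagens from 16 to 8 of 19, stellate cell markers from 19 to 6 of 21, and recruited macrophage markers from 20 of 21 to 15 of 22. Among the falls, urea cycle and amino acid genes went from 29 to 0 of 52, PPAR-alpha and oxidation genes from 21 to 4 of 44 and Cyp2 genes from 14 to 0 of 33. The median fold change of the ER chaperones was then 1.39 and that of the interferon-stimulated genes 1.53, still above 0, while that of the urea cycle list went from -0.38 to 0.04.

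In PiZ mice labelled as lacking p50 (PiZ p50KO, PBS, n = 5), a group that shares the PiZ transgene, several of these genes ranged widely: Serpina3f ranged from 3.52 to 9.44 log2 CPM, H2-Eb1 from -0.14 to 5.45 and Derl3 from 1.78 to 4.62. In wild-type mice 2 hours after TNFa (n = 6), Serpina3f ranged from 3.67 to 4.90, Cxcl10 from 5.84 to 9.60 and Lcn2 from 4.21 to 8.01, against 7.99 to 9.17 in the PiZ libraries. These are levels set side by side, and no test was made of them here.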

How the data were processed

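RNA from livers was sequenced and, per the submitters' processing notes, handled with bcl2fastq, DRAGEN, STAR, featureCounts of Subread and edgeR on mouse build GRCm38; order, settings and strand are not given in the sources used here. The authors deposited log2 CPM per gene. The values show a small prior count (-6.52 at no read) and a scaling to library depth. Of 55774 rows 287 repeat an ID and were kept once. Read numbers were recovered from the values as whole reads (100% whole at a tolerance of 0.1 read, checked up to 1000 reads) and used for depth, shares and floors. Precision follows from 35.5 to 54.0 M reads per library.

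Genes above 1 CPM in at least 5 of the 10 libraries were tested with limma 3.58.1 (lmFit, eBayes with trend, two-sided, R 4.3.3), with Benjamini-Hochberg adjustment over the 12729 genes, on deposited values and after a shift to equal medians. Both had to pass at 0.05. Shares used a two-sided exact permutation test, adjusted over 12 measures. The test was checked on simulated data. The 68 gene lists are described by counts and medians, with no test. The members, lists and rules were chosen with earlier results of these data known. Genes named are the 15 greatest rises and falls whose libraries did not overlap between groups and whose higher mean reached 2 log2 CPM, the 10 of each at 8 log2 CPM or more, up to 4 per direction and the anchors of each list, and near-silent genes. Predicted names stay out, and some genes the rule selects are not reported here. A further 65 genes were named after their values were seen, among them those of promoters and uncalled members. Alternatives covered scaling, filters, prior count, groups in the fit, a block by replicate number and leaving out each library. Promoters are RefSeq's. Tables and plots used Python 3.11.15, pandas 2.3.3 and numpy 2.4.6.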

Additional observations from a re-analysis of the deposited data

Results flagged for a closer look

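In 11 of the 122 groups of 5 libraries examined, 1 library lay far from the other 4 of its group by Dixon's test, where chance gives about 1 group in 20. Of these, 6 values belong to PiZ 4. The 50 most abundant genes held 43.9% of its reads, against 32.9% to 34.3% in the other PiZ libraries. Pirt was at 0.815 log2 CPM there (2.58 to 3.11 in the others), H2-K2 at 1.25 (2.21 to 2.54), Cyp2c37 at 5.48 (4.62 to 4.84), Anxa5 at 8.31 (8.56 to 8.64) and Krt8 at 9.23 (9.96 to 10.1). For these 5 genes PiZ 4 still lay on the same side of every wild-type library as the rest of its group.

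In wild type, albumin took 8.38% of the reads of library 1, against 5.65% to 6.36% in the others, and Krt18 was at 7.68 log2 CPM in library 6, against 7.14 to 7.28. The other 3 values come from genes near silence. Wfdc16 was at -4.38 log2 CPM in wild-type 1, Npc1l1 at -4.84 in wild-type 3 and Lrtm2, a membrane protein of neurons, at -2.37 in wild-type 4. The other 4 wild-type libraries had no read of the gene (-6.52 log2 CPM). With those 4 at the same value, any read in 1 library is flagged, so the chance rate does not apply to these 3 genes.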

How the results depend on the processing

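With all choices as reported, 3241 genes were called. Inclusion of wild-type replicate 2 gave 534 calls, or 1155 with all 4 groups of the table in 1 fit, and the fits that ask for 1 scaling gave more: 6780 on the deposited values alone, 5346 after the shift to equal medians alone and 5236 after quantile normalization. Without 1 of the 10 libraries the count lay between 2458 and 3237, and with no filter, stricter or wider filters, another pseudocount, robust moderation or the other groups in the fit it lay between 2485 and 3440. Of the 284 genes named, of which 228 were called, 119 lost their call with wild-type replicate 2 included. A further 13 lost their call and also changed sign with that library. Both fits that hold it gave the same fold changes: Serpina3k 0.0659, Serpina3m 0.18, Fga 0.19, Fgb 0.42, Fgg 0.42 and Pon1 0.0909. The others were Cps1 0.0006, Ass1 0.13, Otc 0.18, Plg 0.0625, F2 0.22, Ghr 0.19 and Cat 0.30. The difference in the number of genes above 1 CPM, PiZ minus wild type, was then -2270, and the shares of reads of mouse Serpina1 genes, of apolipoproteins and of major urinary proteins no longer passed (exact permutation p = 0.152, 0.669 and 0.0693). No other setting changed the sign of a called gene named here. The cause was not tested. The edgeR and DESeq2 tests planned on the recovered reads were not run.

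The replicate number as a block gave 3177 calls. Deviations of libraries with the same number in both groups correlated at -0.15, -0.17, 0.63 and 0.28 (numbers 1, 3, 4 and 5). Of 4 PiZ libraries 2 correlated best with their own number. With only 4 numbers compared, these values do not decide whether the numbers mark pairs. Titles number the libraries within a group, and the main test used no pairs.

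Genes at a few reads are limited by depth: 3 reads correspond to 0.056 to 0.085 CPM in these libraries, and fitted folds of genes with no wild-type read depend on the prior count.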

Other observations

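Hormones and carriers that the liver releases were divided. Of 28 tested, 6 rose (21.4%, against 19% of all genes) and 4 fell, and 3 rose without wild-type 1 or 5. Serpina7, the thyroxine-binding globulin, which adult mouse liver makes little of, rose by 3.08 ± 0.15 (limma adjusted p = 5.80e-08), the activin antagonist follistatin (Fst) by 2.14 ± 0.47 and the activin subunit Inhbb by 1.86 ± 0.43. The paraoxonase Pon1 fell by 0.60 ± 0.10, and the stress hormone Gdf15 (1.13 ± 0.62) was not called. Of 35 genes of iron and metal handling, 7 rose (20%, again near that of all genes) and 4 fell. Without wild-type 5 or 6 or PiZ 1, 2 or 3, 2 fell. Of the 35, 1 was tested only through PiZ, and 6 of the 34 others rose. The BMP modulator Bmper and the zinc importer Slc39a4 rose by 3.20 ± 0.35 and 1.48 ± 0.21, the iron sensor Tfr2 fell by 0.68 ± 0.20, and the iron exporter Slc40a1 (0.25 ± 0.15) and the transferrin receptor Tfrc (0.00 ± 0.17) were not called. Inhbb was not called without wild-type 5.

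Of 30 solute carriers typical of hepatocytes 13 fell and 2 rose: Slc16a11, a monocarboxylate carrier, fell by 2.17 ± 0.34 and the amino acid carrier Slc43a1 by 1.22 ± 0.32, and the organic anion carrier Slco1a4 rose by 2.36 ± 0.18. Of 30 peroxisome genes 8 fell and 0 rose, catalase (Cat) among them, by 0.31 ± 0.11. The clock output factors Tef and Hlf fell by 1.25 ± 0.45 and 0.90 ± 0.24, while Per2 (-1.25 ± 0.50) and Arntl (0.69 ± 0.51) of the core loop were not called. Among 6 red blood cell genes tested the haemoglobin chain Hba-a2 rose by 2.43 ± 0.25 and its near-copy Hba-a1 (-0.55 ± 0.24) was not called. Cat was not called without wild-type 1, 4, 5 or 6 or PiZ 1, 2 or 5. Tef was not called without wild-type 4 or PiZ 1, 3 or 4.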
